A study of Mus musculus with 4 samples.

Results

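The T cell receptor gene segments are the variable, joining and constant elements of the alpha, beta, gamma and delta receptor loci. They were taken as every row of the deposited expression table whose gene name begins with Tra, Trb, Trg or Trd followed by v, j or c. This gave 255 of 46517 rows. Of these, 190 lie in the alpha locus, 51 in the beta locus, 9 in the delta locus and 5 in the gamma locus. By kind they are 171 variable, 80 joining and 4 constant segments, and 44 are annotated as pseudogenes. The choice used names alone and no measured value. The gamma constant genes carry the name Tcrg-C in this table and so fall outside the choice. They are given separately below because the gamma locus cannot be described without them.

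Messenger RNA had been sequenced from LSK cells (lineage-negative, Sca-1-positive, c-Kit-positive bone marrow cells, which include the blood stem cells and their first descendants). The cells came from C57BL/6 mice aged 8-10 weeks, of genotype Setd2f/f or Setd2D/D, with 2 libraries of each. Setd2 encodes the enzyme that trimethylates lysine 36 of histone H3, and its alleles are floxed in Setd2f/f and deleted in Setd2D/D. The labels name no Cre line, no deleted exon and no number of mice per library. Nothing states that replicates came from separate animals, so the p-values cover the spread among libraries alone, and that spread may be technical.

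A T cell receptor gene is assembled during T cell development, when RAG1 and RAG2 cut beside a variable, in some loci a diversity, and a joining segment and DNA repair enzymes join them. The joined exon is then spliced to a constant gene. Variable segments that have not been joined can also be transcribed from their own promoters, as germline or sterile transcripts, and such transcripts occur in early progenitors and immature lymphocytes. A short-read value for a segment counts both kinds together.

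Most of the segments were undetected in these libraries. In all, 219 of the 255, the 80 short joining segments among them, had a value of 0 TPM (a share of the library's transcripts, corrected for length) in all 4 libraries. Another 16 had a value in 1 library, 8 in 2 libraries and 7 in 3 libraries. The 5 with a value in every library were the constant genes Trbc1, Trbc2 and Trdc and the variable segments Trbv12-2 and Trbv13-2. Trbv13-2, a beta variable segment, was the most abundant by mean level, and was higher in both Setd2D/D libraries than in both Setd2f/f libraries. It did not pass the test across all genes.

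The sequences of 3 closely related variable segments are shown first, since short reads from one could be assigned to another. They are the last 90 bases of each spliced segment, up to the point where joining takes place, from GENCODE M21 transcripts (GRCm38). Capitals mark the bases of Trbv13-1 and Trbv13-3 that differ from Trbv13-2, 15 and 10 of the 90.
Trbv13-2: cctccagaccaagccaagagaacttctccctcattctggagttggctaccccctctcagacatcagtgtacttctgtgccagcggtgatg
Trbv13-1: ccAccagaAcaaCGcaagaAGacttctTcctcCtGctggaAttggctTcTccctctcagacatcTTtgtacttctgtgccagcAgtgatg
Trbv13-3: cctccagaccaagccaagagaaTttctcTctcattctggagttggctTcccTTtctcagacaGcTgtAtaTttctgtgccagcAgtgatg
The tgtgccagc near the end encodes the conserved cysteine at the start of the third hypervariable loop, and all 3 share it. Over the whole spliced segment, Trbv13-2 was 88.7% identical to Trbv13-1 (38 of 337 aligned bases differ) and 90.6% identical to Trbv13-3 (32 of 340 differ). The longest stretch without a difference was 34 bases to Trbv13-1 and 50 bases to Trbv13-3. Both relatives were at 0 TPM in all 4 libraries.

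Joining segments are shown next because their length bears on what the table can hold. The capitals mark the codons of the phenylalanine-glycine-X-glycine motif (X is any amino acid), the hallmark of a joining segment, which 56 of the 80 contain in a forward frame.
Trbj1-1: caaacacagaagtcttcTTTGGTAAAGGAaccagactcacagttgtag
Trbj2-7: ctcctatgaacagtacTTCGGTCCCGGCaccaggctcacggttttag
Traj18: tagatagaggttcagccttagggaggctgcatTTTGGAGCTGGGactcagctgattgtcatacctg
Trdj1: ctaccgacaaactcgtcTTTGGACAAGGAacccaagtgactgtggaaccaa
These lie at chr6:41533864-41533911, chr6:41543810-41543856, chr14:54200777-54200842 and chr14:54123138-54123188 on the plus strand of GRCm38. The 80 joining segments are 29 to 72 nt long, with a median of 60 nt. All 80 were at 0 TPM in all 4 libraries. The table holds 787 other rows of 29 to 72 nt, and 0 of these had a value above 0 in any library either. The zeros of the joining segments therefore cannot be read as absent transcripts.

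Constant genes were detected in every library for beta and for delta, the delta gene below 1 TPM throughout, and the alpha gene was not detected in every library. Trbc1 (ENSMUSG00000076490, chr6:41538218-41539881), the first beta constant gene, had 6.35 and 5.17 TPM in Setd2f/f (replicates 1 and 2, in that order throughout). In the Setd2D/D libraries it was at 8.59 and 2.90 TPM. The Setd2D/D libraries thus lay on either side of the Setd2f/f libraries. Trbc2 (ENSMUSG00000076498, chr6:41546730-41548352), the second, was at 4.39 and 6.56 TPM in Setd2f/f against 0.83 and 7.10 TPM in Setd2D/D. Here too the Setd2f/f values fell between the Setd2D/D values, and Setd2D/D replicate 1 was the lowest. The 2 genes encode nearly the same protein part, share 87.1% of 677 aligned bases and have an identical run of 259 bases, so that the split of reads between them is uncertain.

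Summed, Trbc1 and Trbc2 varied less than either alone. The sum was 10.7 and 11.7 TPM in Setd2f/f and 9.42 and 10.0 TPM in Setd2D/D. This gave means of 11.2 ± 0.700 and 9.71 ± 0.410 TPM (SD, n = 2 libraries each) and a ratio of 0.864. Trbc1 made up 59.1% and 44.1% of the sum in Setd2f/f and 91.2% and 29.0% in Setd2D/D. In limma on log2(TPM + 1), fitted across 14755 genes with Benjamini-Hochberg adjustment, the log2 difference was -0.14 for Trbc1 (SE 0.50, adjusted p = 0.948) and -0.73 for Trbc2 (SE 0.77, adjusted p = 0.758). Differences are Setd2D/D minus Setd2f/f, and on this scale they understate the change of genes near the added 1. Neither sign was stable, since Trbc1 was at 0.51 without Setd2D/D replicate 2 and Trbc2 at 0.34 without Setd2D/D replicate 1.

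Trac (ENSMUSG00000076928, chr14:54220521-54224206), the alpha constant gene, was at 0.54 and 0 TPM in Setd2f/f against 0 and 1.81 TPM in Setd2D/D. It was thus detected in 1 library of each genotype. Trdc (ENSMUSG00000104876, chr14:54142851-54148868), the delta constant gene, was at 0.43 and 0.34 TPM in Setd2f/f against 0.09 and 0.24 TPM in Setd2D/D. Both Setd2D/D values lay under both Setd2f/f values, but every value was below 1 TPM, the level a gene had to reach in 2 libraries to be tested.

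Trbv13-2 (ENSMUSG00000076469, chr6:41121396-41121832, plus strand, a functional variable segment with 340 nt of exon) was at 3.76 and 4.14 TPM in Setd2f/f. It was at 21.1 and 23.9 TPM in Setd2D/D. The genotypes did not overlap, and the gap between them was larger than the spread within either. The means were 3.95 ± 0.269 and 22.5 ± 1.96 TPM (SD, n = 2 libraries each), a ratio of 5.69. The limma log2 difference was 2.24 (SE 0.23), with an unadjusted p of 0.000242 and an adjusted p of 0.109, rank 32 of the 14755 genes by p. Across 12 alternative settings the log2 difference stayed between 2.16 and 2.48 and the adjusted p between 0.0672 and 0.814. The authors' deposited table gives a log2 fold change of 2.55 with an FDR of 0.277. At the worth of 1 read in genes of 300 to 450 nt (below), the levels correspond to about 25 and 30 reads in the Setd2f/f libraries and 188 reads in Setd2D/D replicate 2. No such estimate could be made for Setd2D/D replicate 1.

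**Figure D1:**
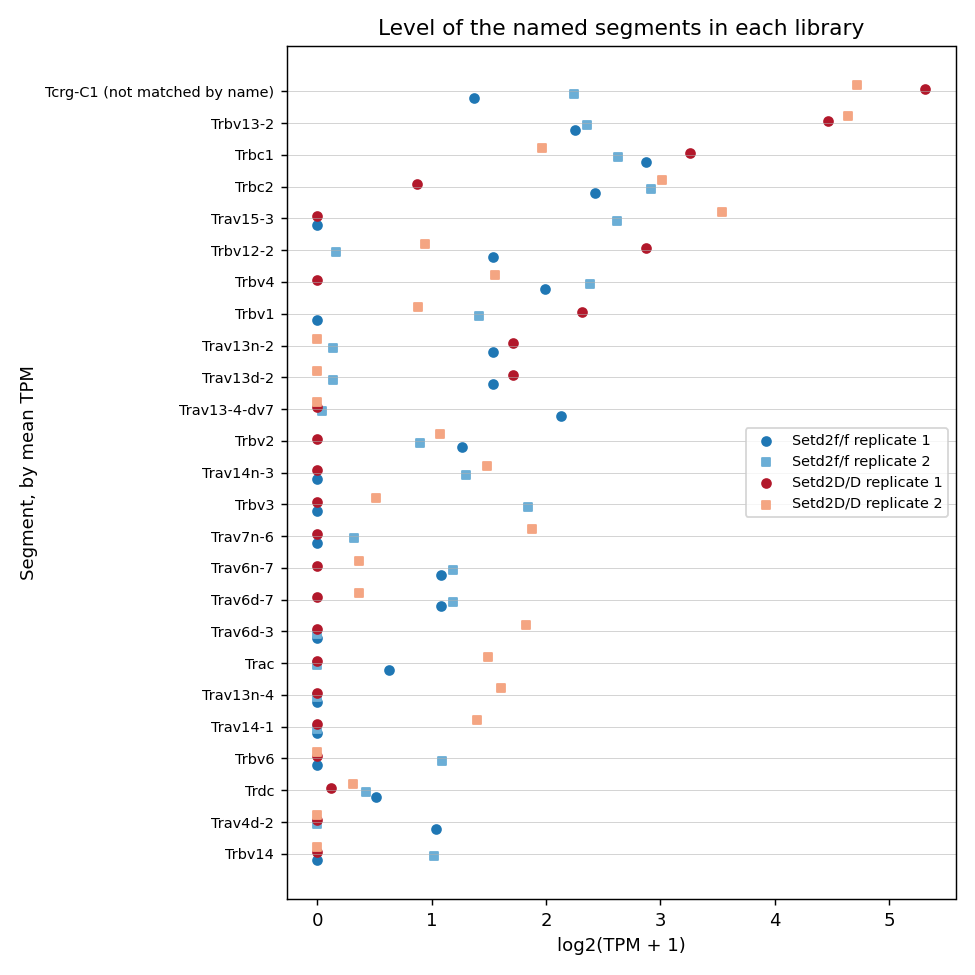
Level of the 24 named segments and of Tcrg-C1 in each library. The x axis is log2(TPM + 1), rows are segments ordered by mean TPM (Tcrg-C1 placed on top), and each point is 1 library. Trbv13-2 and Tcrg-C1 are the rows in which both Setd2D/D points lie far to the right of both Setd2f/f points, while most other rows mix the genotypes or rest on 1 library.

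Trbv13-2 carried most of the beta variable signal in the Setd2D/D libraries. Its share of all beta variable TPM was 34.4% and 24.7% in Setd2f/f and 67.2% and 79.4% in Setd2D/D. The 35 beta variable segments together were at 10.9 and 16.7 TPM in Setd2f/f against 31.4 and 30.1 TPM in Setd2D/D, a ratio of 2.22. Without Trbv13-2 the other 34 summed to 7.18 and 12.6 TPM in Setd2f/f and to 10.3 and 6.19 TPM in Setd2D/D, a ratio of 0.834, and the genotypes overlapped. The higher beta variable sum of the Setd2D/D libraries was thus carried by a single segment.

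The remaining beta variable segments were low, and their order differed from library to library. Trbv12-2, which ends 2031 bases before Trbv13-2 starts, was at 1.90 and 0.12 TPM in Setd2f/f against 6.35 and 0.92 TPM in Setd2D/D. Setd2D/D replicate 1 was the highest, while replicate 2 of that genotype lay inside the Setd2f/f range (limma log2 difference 1.06, SE 0.85, adjusted p = 0.670). Trbv1, the segment farthest from the constant genes, was at 0 and 1.66 TPM in Setd2f/f against 3.96 and 0.84 TPM in Setd2D/D, again overlapping (adjusted p = 0.690). Trbv4 was at 2.97 and 4.22 TPM in Setd2f/f against 0 and 1.94 TPM in Setd2D/D. Both Setd2D/D values lay below both Setd2f/f values, without passing the limma test (log2 difference -1.41, SE 0.63, adjusted p = 0.485). Trbv4 lies inside the long non-coding RNA 5830405F06Rik on the same strand, which was at 2.04 and 2.05 TPM in Setd2f/f against 0.22 and 1.25 TPM in Setd2D/D. Reads of the segment and of that RNA cannot be told apart where they overlap. Trbv2 was at 1.40 and 0.86 TPM in Setd2f/f against 0 and 1.10 TPM in Setd2D/D (adjusted p = 0.747). Trbv3 was at 0 and 2.59 TPM and at 0 and 0.43 TPM, with replicate 2 of each genotype the detected one.

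The detected beta variable segments lay in one part of the array. In chromosome order, the 11 detected beta variable segments all fell among the first 21 of the 35, from Trbv1 at -647.0 kb to Trbv17 at -375.2 kb relative to the start of Trbc1. The other 10 of the first 21 were undetected too. The last 14, from Trbv18 to Trbv31, were at 0 TPM in all 4 libraries. Trbv31 lies beyond the constant genes on the opposite strand. Trbv13-2 is the fifteenth in this order, 416.8 kb before Trbc1. Its immediate neighbours of the same family, Trbv13-1 and Trbv13-3, were undetected. Trbv12-3, a pseudogene and the next segment after it, was at 0.96 TPM in Setd2D/D replicate 2 and at 0 in the other libraries.

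**Figure D2:**
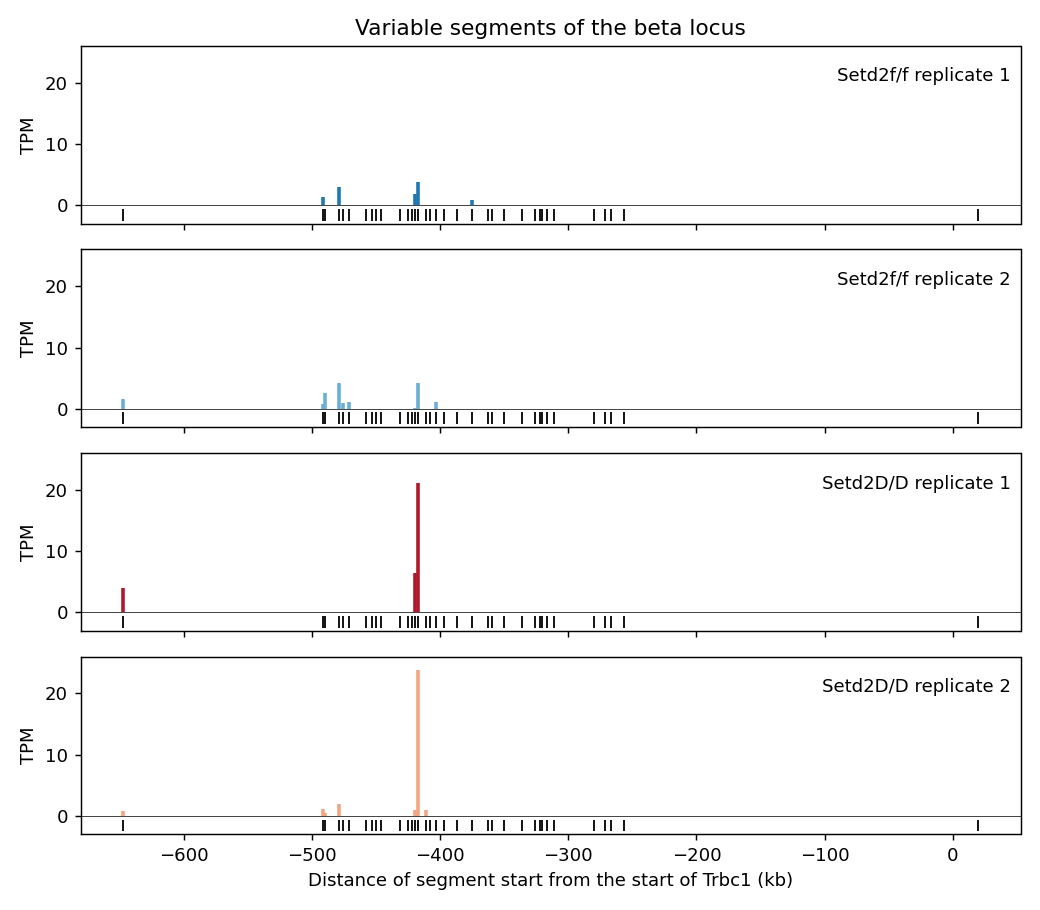
Variable segments of the beta locus in each library. The x axis is the distance of a segment's start from the start of Trbc1 in kb, the y axis is TPM, coloured bars are levels and the black ticks under the axis mark all 35 segments. The tall bar in both Setd2D/D libraries is Trbv13-2, at 21.1 and 23.9 TPM, and no bar stands among the 14 segments to its far right.

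Few alpha variable segments were detected, and 11 of them in 1 library only. Of 129, 21 had a value in any library, and 0 had one in all 4. A value in both Setd2f/f libraries was found for 5, and in both Setd2D/D libraries for 0. The 5 were Trav13-4-dv7, at 0.03 TPM in Setd2f/f replicate 2, and the identical pairs Trav6d-7 with Trav6n-7 and Trav13d-2 with Trav13n-2 (below). Setd2D/D replicate 1 had only 2 alpha variable segments above 0. The same counts were not made over all rows, so that they are not read as a difference between genotypes. Unlike those of the beta locus, the detected alpha variable segments were spread along the array, from the second (Trav2) to number 120 (Trav15-3) in chromosome order. The highest was Trav15-3, a pseudogene of only 155 nt, at 0 and 5.14 TPM in Setd2f/f against 0 and 10.6 TPM in Setd2D/D. It was listed at 0 in replicate 1 and detected in replicate 2 of both genotypes (limma adjusted p = 0.936). Trav14n-3 had the same order of libraries, with 0 and 1.47 TPM in Setd2f/f and 0 and 1.79 TPM in Setd2D/D (adjusted p = 0.980).

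Part of the alpha array exists in duplicate copies, and the table does not separate these. In 4 pairs the annotated transcripts were identical and so were all 4 TPM values. Trav6d-7 and Trav6n-7 were both at 1.12 and 1.27 TPM in Setd2f/f against 0 and 0.29 TPM in Setd2D/D. Setd2D/D lay below Setd2f/f in both libraries of this pair, without passing limma (log2 difference -0.95, SE 0.45, adjusted p = 0.499). Trav13d-2 and Trav13n-2 were both at 1.90 and 0.10 TPM in Setd2f/f against 2.27 and 0 TPM in Setd2D/D, high in replicate 1 of each genotype (adjusted p = 0.996). Trav4d-4 with Trav4n-4 was detected in Setd2f/f replicate 1, at 0.73 TPM each. Trav5d-4 with Trav5n-4 was at 0.21 TPM in Setd2f/f replicate 2 and 0.61 TPM in Setd2D/D replicate 2. A value for such a pair belongs to the sequence, not to 1 copy.

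Among segments found in a single library, Trav6d-3 at 2.55 TPM, Trav13n-4 at 2.05 TPM and Trav14-1 at 1.64 TPM were the most abundant, and all 3 came from Setd2D/D replicate 2. Trav4d-2, a pseudogene at 1.05 TPM, came from Setd2f/f replicate 1. Trbv6, also a pseudogene, at 1.13 TPM and Trbv14 at 1.03 TPM came from Setd2f/f replicate 2. Trav13-4-dv7, a segment that can be used by alpha and delta chains, had 3.37 TPM in Setd2f/f replicate 1 but 0.03 TPM in replicate 2 and 0 in both Setd2D/D libraries. Trav7n-6, a name carried by 2 rows, was at 0 and 0.25 TPM in Setd2f/f against 0 and 2.68 TPM in Setd2D/D in one row and at 0 in the other.

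Few reads stood behind these values. For genes with a value in 1 library, a read number was estimated by setting the deposited mean abundance against steps of whole reads. The steps reached 20 reads, or 4 in Setd2D/D replicate 1. Of the genes within the steps, 70.5% to 75.7% by library lay within 0.05 of a whole read. The steps were placed at common values of these same genes, so that part of this share was fixed in advance. The 16 single-library segments rested on an estimated 1 to 18 reads. Trav4d-4 and Trav4n-4, which share their sequence, were at 4.5 reads each, and Trav13d-4 and Trbv5 were at 4.85 and 7.71 reads, not on a whole number. Trav11d and Trav4-4-dv10 had 1 read each, Trbv17 had 6, Trbv14 had 8 and Trav6d-3 had 17. In genes of 300 to 450 nt, 1 read was worth 0.152, 0.137 and 0.127 TPM (medians) in Setd2f/f replicates 1 and 2 and Setd2D/D replicate 2. A segment of that length at 1 TPM therefore rested on fewer than 10 reads in these libraries. No such worth was recovered for Setd2D/D replicate 1. Whether the absence of such a segment from another library is a difference was not tested, and it is not read as one.

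**Figure D3:**
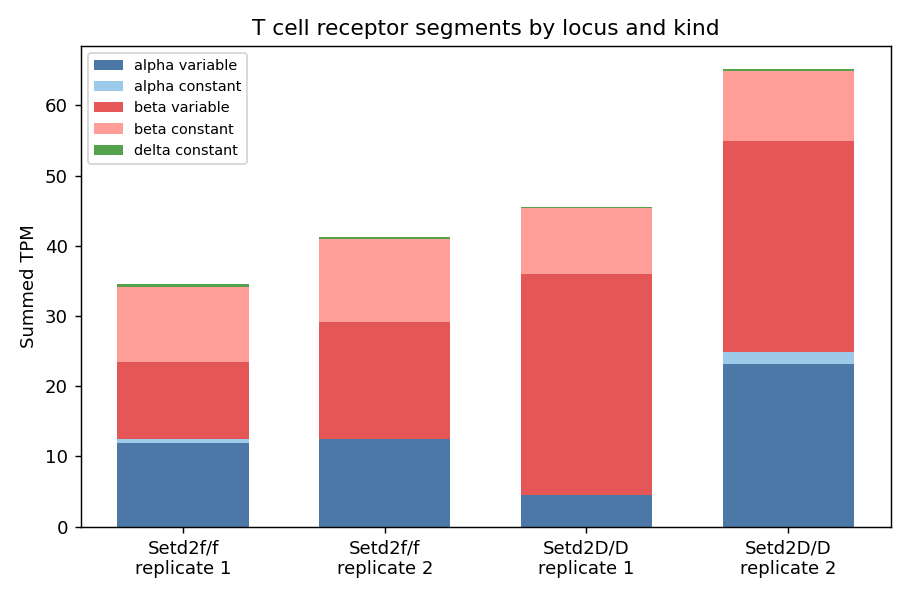
Summed TPM of the segments by locus and kind in each library, as stacked bars from 0. The alpha variable part is between 4.54 and 23.1 TPM with the extremes in the Setd2D/D libraries, the beta variable part is larger in both Setd2D/D libraries, and the beta constant part is between 9.42 and 11.7 TPM in all 4.

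Summed over a locus, the alpha segments were at 12.5 and 12.5 TPM in Setd2f/f against 4.54 and 24.9 TPM in Setd2D/D. The Setd2D/D libraries enclosed the Setd2f/f libraries, and the difference of means was 2.26 TPM (exact permutation test, 2-sided, p = 1.0). Without Setd2D/D replicate 2 it was -7.93 TPM. The beta segments summed to 21.7 and 28.5 TPM in Setd2f/f and to 40.8 and 40.1 TPM in Setd2D/D. The genotypes did not overlap, with means of 25.1 ± 4.80 and 40.4 ± 0.544 TPM (SD, n = 2) and p = 0.333 by the exact test, the smallest that 2 against 2 libraries can give. Without Trbv13-2 the beta difference changed sign, from 15.4 to -3.17 TPM, a setting chosen after seeing the data. The delta sum was that of Trdc alone, since the 6 delta variable and 2 delta joining segments were at 0 TPM in all 4 libraries. All 5 gamma segments that the names matched, Trgv2 and 4 joining segments, were also at 0.

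Of the 255 segments, 13 reached TPM 1 in at least 2 libraries and were tested. In the limma fit 0 of these 13 passed an adjusted p of 0.05, against 0.0678% of all genes tested (0.0203% higher and 0.0474% lower in Setd2D/D). At an unadjusted p under 0.05 there was 1, Trbv13-2, against 11.2% of all genes. Both Setd2D/D libraries lay above both Setd2f/f libraries in 1 of the 13, again Trbv13-2 (16.8% of all genes), and below them in 3, namely Trbv4, Trav6d-7 and Trav6n-7 (27.6% of all genes). Trav6d-7 and Trav6n-7 are identical in sequence and in value, so that 1 measurement is counted as 2 segments here. The same holds for Trav13d-2 and Trav13n-2, also among the 13. The authors' deposited table lists 36 of the segments, and 0 had an FDR under 0.05, against 3.15% of its 23955 genes (1.51% higher and 1.64% lower).

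The number of detected segments was lowest in the library with the fewest detected rows and highest in the library with the most. Only the libraries between these changed places. Setd2f/f had 17 and 27 segments above 0 TPM and Setd2D/D had 8 and 21. Over all 46517 rows, 19896 and 20192 were above 0 in Setd2f/f and 17185 and 19448 in Setd2D/D. By both counts Setd2D/D replicate 1 was the lowest and Setd2f/f replicate 2 the highest. Setd2D/D replicate 2 had more segments but fewer rows than Setd2f/f replicate 1. The part of depth in the number of segments was not tested. At TPM 1 or more the segments numbered 12 and 12 in Setd2f/f and 6 and 12 in Setd2D/D, where all rows numbered 14428 and 14421 and 14360 and 14610. Of the 32 variable segments above 0 in any library, 15 were found in both genotypes, 13 in Setd2f/f alone and 4 in Setd2D/D alone. The same split was not made over all rows, so that these counts are not read as a difference between genotypes. Trav4d-4 and Trav4n-4, identical in sequence and in value, are counted separately among the 13. The same holds among the 15 for Trav5d-4 with Trav5n-4, Trav6d-7 with Trav6n-7 and Trav13d-2 with Trav13n-2. The same number of libraries stood behind each genotype, but Setd2D/D replicate 1 had the fewest rows above 0, and the read numbers above apply. Variable segments at TPM 1 or more in both libraries of a genotype were Trbv13-2, Trbv4, Trav6d-7 and Trav6n-7 in Setd2f/f and Trbv13-2 in Setd2D/D.

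Receptor variable segments of T cells were also rarer than those of B cells. A value above 0 in any library was found for 32 of 171 T cell receptor variable segments (18.7%) and for 202 of 350 immunoglobulin variable rows (57.7%). Among other rows with an exon length of 155 to 595 nt, the range of the T cell receptor variable segments, it was 2307 of 7571 (30.5%). The immunoglobulin variable rows summed to 3423 and 2880 TPM in Setd2f/f and to 3572 and 2750 TPM in Setd2D/D, a ratio of 1.003. All T cell receptor segments together reached 34.6 and 41.3 TPM in Setd2f/f and 45.5 and 65.2 TPM in Setd2D/D. Without Trbv13-2 these sums were 30.8 and 37.1 TPM in Setd2f/f and 24.4 and 41.3 TPM in Setd2D/D, a ratio of 0.967.

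Among the related genes that the names did not match, Tcrg-C1 stood out. It is a gamma constant gene (ENSMUSG00000076749, chr13:19214103-19217024) and was at 1.59 and 3.75 TPM in Setd2f/f against 38.8 and 25.4 TPM in Setd2D/D. The genotypes did not overlap, with means of 2.67 ± 1.53 and 32.1 ± 9.46 TPM (SD, n = 2), a ratio of 12.0. In limma the log2 difference was 3.21 (SE 0.41, adjusted p = 0.151), and across 12 alternative settings it was between 2.77 and 3.65 with an adjusted p between 0.0649 and 0.727. The authors' deposited table calls Tcrg-C1 higher, with a log2 fold change of 3.61 and an FDR of 3.98e-12. The 2 analyses thus put Tcrg-C1 on different sides of the threshold.

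The other gamma constant genes did not share this pattern. Tcrg-C2 was at 1.20 and 0 TPM in Setd2f/f against 0 and 1.13 TPM in Setd2D/D. Tcrg-C3 was at 0.54 TPM in Setd2f/f replicate 1 and at 0 in the other libraries. Tcrg-C4 had 2.45 and 1.17 TPM in Setd2f/f and was listed at 0 in both Setd2D/D libraries (limma adjusted p = 0.418). Tcrg-C1 is 96.1% identical to Tcrg-C2, 97.2% to Tcrg-C3 over 647 aligned bases and 70.7% to Tcrg-C4, so that reads may be split among the first 3. Of the variable genes named Tcrg-V, Tcrg-V5 was at 0 and 1.90 TPM in Setd2f/f against 0.84 and 0 TPM in Setd2D/D, and the other 4 were at 0. Gm16602, which GENCODE M21 names Tcrg-V1, was at 2.66 TPM in Setd2f/f replicate 2 and at 0 in the other libraries. No gamma variable row thus reached the level of Tcrg-C1 in the Setd2D/D libraries. One further row, B230359F08Rik, is annotated as a variable gene inside the alpha locus (chr14:53795357-53795963). Setd2f/f libraries list it at 0, and Setd2D/D had 5.26 and 2.91 TPM (limma adjusted p = 0.275). The 4 diversity segments, which are 11 to 16 nt long, were at 0 throughout.

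**Figure D4:**
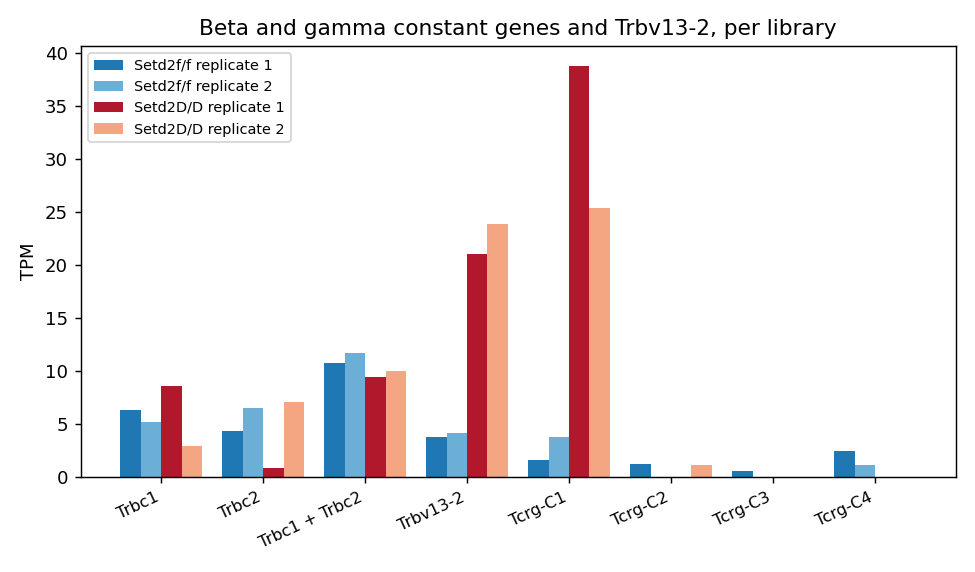
Beta and gamma constant genes and Trbv13-2 in each library, as bars of TPM from 0. The bars of Trbc1 and Trbc2 differ between libraries while their sum is between 9.42 and 11.7 TPM, and Trbv13-2 and Tcrg-C1 are higher in both Setd2D/D libraries.

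Transcripts of the proteins that carry the receptor to the surface were low. Of the CD3 chains, Cd3d was at 0.45 and 0.30 TPM in Setd2f/f against 0 and 0.25 TPM in Setd2D/D. Cd3e was at 0.57 and 0 TPM and at 0.09 and 0 TPM. Cd3g was at 0.62 and 0.52 TPM and at 0 and 2.35 TPM. Ptcra, the pre-T alpha chain that pairs with a newly made beta chain, was at 0 and 0.27 TPM in Setd2f/f against 0.83 and 0.32 TPM in Setd2D/D. Cd247, the zeta chain, which natural killer cells also use, was at 6.91 and 4.77 TPM and at 6.74 and 9.0 TPM (limma adjusted p = 0.679). Of the 5 genes in this list 1 was tested, and 0 passed limma or an FDR of 0.05 in the authors' deposited table.

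Genes of proximal receptor signalling were mostly lower in Setd2D/D, but 0 of the 10 tested passed limma. At an unadjusted limma p under 0.05, 0 were higher and 5 lower, where 615 and 1032 of all 14755 genes tested were. Of the 10 log2 differences 9 were below 0, as were 8538 of the 14755. The median was -0.53 against -0.06 over all genes tested. Lat, an adaptor that links the receptor to downstream enzymes, was at 59.9 and 44.9 TPM in Setd2f/f against 27.1 and 29.7 TPM in Setd2D/D (log2 difference -0.85, SE 0.19, adjusted p = 0.327). Lck, the kinase that starts receptor signalling, was at 52.7 and 53.0 TPM and at 37.6 and 25 TPM (adjusted p = 0.396). Plcg1, a phospholipase, was at 89.5 and 74.4 TPM and at 58.9 and 43.3 TPM (adjusted p = 0.396). Ptpn22, a phosphatase that restrains the pathway, was at 40.9 and 35.9 TPM and at 16.6 and 23.99 TPM (adjusted p = 0.346). The genotypes did not overlap in 6 of the 10, these 4 with Zap70 and Vav1, all lower in Setd2D/D, as in 27.6% of all genes. The authors' deposited table calls the same 4 lower, with an FDR between 1.01e-05 (Plcg1) and 0.0377 (Ptpn22), of 13 listed, where 1.64% of all its genes are lower. These genes are not restricted to T cells.

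Enzymes of V(D)J recombination were present in every library. Rag1 was at 23.4 and 9.73 TPM in Setd2f/f against 12.9 and 13.5 TPM in Setd2D/D, and Rag2 at 27.3 and 18.1 TPM and at 19.5 and 18.3 TPM. For both genes the genotypes overlapped (limma adjusted p = 0.900 and 0.771). Dntt, which adds untemplated bases at the joints, was at 668 and 594 TPM in Setd2f/f against 427 and 408 TPM in Setd2D/D. It was lower in both Setd2D/D libraries without passing limma (log2 difference -0.59, SE 0.10, adjusted p = 0.242), and the authors' deposited table calls it lower (log2 fold change -0.54, FDR 0.00137). The end-binding and ligation genes Xrcc6, Xrcc5 and Lig4 had log2 differences of 0.22, -0.29 and -0.74 (adjusted p = 0.540, 0.552 and 0.595). Of the 12 genes tested, 0 passed limma. At an unadjusted limma p under 0.05, 0 were higher and 1 was lower, where 615 and 1032 of all 14755 genes tested were. The median log2 difference was -0.17.

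Most transcription factors of the T lineage were lower in Setd2D/D and a few higher, but 0 of the 14 tested passed limma. Of the 14 log2 differences, 11 were below 0, as were 8538 of all 14755 genes tested. The genotypes did not overlap in 9 that were lower and 2 that were higher (27.6% and 16.8% of all genes). Gata3, needed for T cell specification, was at 6.23 and 6.01 TPM in Setd2f/f against 16.7 and 10.0 TPM in Setd2D/D (limma log2 difference 0.97, SE 0.32, adjusted p = 0.415). Tcf7, which acts downstream of Notch in the first T cell steps, was at 6.74 and 5.42 TPM and at 2.58 and 1.59 TPM (log2 difference -1.21, SE 0.35, adjusted p = 0.393). Runx1 was at 62.8 and 65.9 TPM and at 45.1 and 46.7 TPM, and Tcf12, a partner of lineage factors, at 89.5 and 82.3 TPM and at 62.8 and 68.0 TPM. Bcl11b, which marks commitment to the T lineage, was below 0.4 TPM in all 4 libraries. At an unadjusted limma p under 0.05, 1 was higher and 5 were lower, where 615 and 1032 of all 14755 genes tested were. The median log2 difference was -0.53. The authors' deposited table calls Gata3 higher (FDR 0.00532) and Lef1 and Tox lower (FDR 0.0176 and 0.0261), of 16 listed, where 1.51% of all its genes are higher and 1.64% lower. Lef1 was at 15.2 and 4.98 TPM in Setd2f/f against 2.1 and 12.6 TPM in Setd2D/D, so that the genotypes overlapped (limma adjusted p = 0.832). Tox was at 10.5 and 5.26 TPM and at 3.24 and 2.63 TPM, without overlap (limma adjusted p = 0.434).

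**Figure D5:**
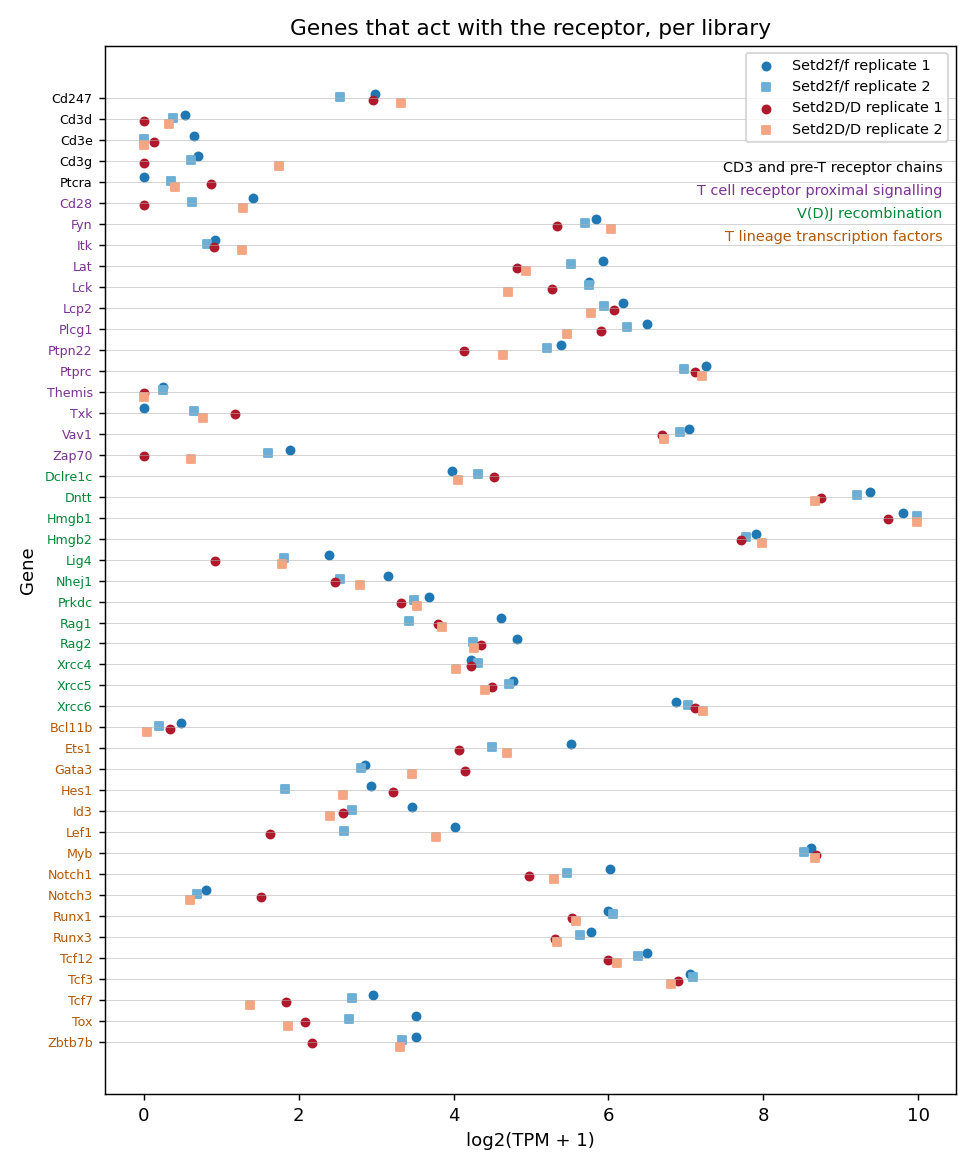
Genes that act with the receptor, by list and library. The x axis is log2(TPM + 1), each point is 1 library, and the colour of a gene's name gives its list. Cd3d, Cd3e, Cd3g and Ptcra lie at or below 2.35 TPM and most recombination and signalling genes lie to their right, with Lat, Lck, Plcg1 and Ptpn22 lower in both Setd2D/D libraries.

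Marker lists were read in the same libraries. Kit, which defines the gate, was at 224 and 249 TPM in Setd2f/f against 301 and 285 TPM in Setd2D/D, while Ly6a, which encodes Sca-1, was at 128 and 124 TPM and at 46.5 and 80.6 TPM. The 12 genes of mature T cells summed to 82.0 and 57.0 TPM in Setd2f/f and to 30.1 and 46.7 TPM in Setd2D/D. Most of that was Lat, which is not restricted to T cells, and 4 of the 12 were below 1 TPM in all libraries. Without Lat the other 11 summed to 22.1 and 12.1 TPM in Setd2f/f and to 2.98 and 16.99 TPM in Setd2D/D, and the genotypes overlapped. Cd8a did not exceed 0.47 TPM, and Cd4 was at 14.6 and 4.15 TPM in Setd2f/f against 0 and 2.29 TPM in Setd2D/D. Cd3g, Cd5, Cd2, Cd8a, Cd8b1 and Trat1 were highest in Setd2D/D replicate 2, with Trat1 at 3.96 TPM. Cd3g, Cd5 and Trat1 were at 0 in Setd2D/D replicate 1. The other members went the other way, with Cd3d, Cd3e, Cd4, Cd28 and Lat highest in Setd2f/f replicate 1 and Cd6 in Setd2f/f replicate 2. Both Setd2D/D libraries lay below both Setd2f/f libraries in 4 of the 12 and above them in 1 (27.6% and 16.8% of all genes tested). Whether the level of Trbv13-2 followed the markers of this list was not tested.

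The 8 genes of double-negative thymocytes summed to 71.6 and 69.8 TPM in Setd2f/f and to 55.0 and 36.4 TPM in Setd2D/D, and 3 of them were below 1 TPM throughout. The 10 genes of natural killer and innate lymphoid cells summed to 124 and 131 TPM and to 84.7 and 123 TPM, of which Nkg7 made up most, and 5 were below 1 TPM throughout. The 7 genes of gamma-delta T cells summed to 26.4 and 26.7 TPM in Setd2f/f and to 53.6 and 44.2 TPM in Setd2D/D. That list holds Tcrg-C1 itself, and its 4 members not named Tcrg summed to 21.1 and 21.7 TPM in Setd2f/f and to 14.8 and 17.7 TPM in Setd2D/D. Of all 7, Tcrg-C1 and Zbtb16 were higher in both Setd2D/D libraries and Tcrg-C4 and Sox13 lower in both (16.8% and 27.6% of all genes tested). Zbtb16 had 1.71 and 1.40 TPM in Setd2f/f and 2.04 and 3.94 TPM in Setd2D/D, and Sox13 had 13.9 and 17.8 TPM and 10.6 and 9.07 TPM. Genes of other blood lineages were read too. The haemoglobin genes summed to 59.4 and 113.5 TPM in Setd2f/f and to 354 and 271 TPM in Setd2D/D, higher in both libraries in which Trbv13-2 and Tcrg-C1 were higher. The counts that follow stand beside 27.6% of all genes tested that were lower in both Setd2D/D libraries and 16.8% that were higher. The 9 B cell genes summed to 514 and 284 TPM and to 181 and 258 TPM, with 5 lower in both Setd2D/D libraries and 1 higher. The 10 genes of lymphoid-primed progenitors summed to 1729 and 1603 TPM and to 1518 and 1436 TPM, with 4 lower and 1 higher, and the 6 plasma cell genes to 453 and 330 TPM and to 320 and 317 TPM, with 1 lower. The 10 genes of LSK cells summed to 1766 and 1697 TPM and to 1391 and 1310 TPM, with 4 lower and 1 higher. No marker of these lists was at 0 in all 4 libraries. In bulk RNA, fewer cells of a type and less RNA per cell cannot be told apart, and the part of rare lymphoid cells, or of a shift among blood lineages, in the segments' levels was not tested.

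Setd2, read over the whole gene as a check of the labels, had 78.9 and 68.0 TPM in Setd2f/f and 43.4 and 49.5 TPM in Setd2D/D. It was lower in both libraries of the deleted genotype, without passing limma (log2 difference -0.65, SE 0.15, adjusted p = 0.329). The authors' deposited table calls it lower (log2 fold change -0.73, FDR 5.84e-06). Between 14360 and 14610 rows of the table reached TPM 1 in a library.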

How the data were processed

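mRNA-seq of 4 LSK libraries, 2 Setd2f/f and 2 Setd2D/D, was available as 2 tables that the authors deposited. The first holds TPM per gene as deposited by the authors, a unit that by definition corrects for length and scales each library to a common total. The second is the authors' deposited comparison of 23955 genes, with the fold change (a ratio), its log2, the mean log2 CPM, an F score and an FDR. Its p-values, also deposited by the authors, were not used. Per the submitters' processing notes, cutadapt, RSEM, edgeR and mm10 were used, with no version or role stated. For the aligner, annotation, strand, read length and read totals, the sources used here give nothing. Fields shifted by a comma in a gene name were joined again in 5 and 2 rows.

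The 14755 genes that reached TPM 1 in 2 or more libraries were tested with limma 3.58.1 in R 4.3.3 on log2(TPM + 1), with genotype as the only term and an abundance trend. Tests were 2-sided with a threshold of 0.05 after Benjamini-Hochberg adjustment. The code was tested on simulated data. Locus sums were compared by an exact permutation test, which cannot go below p = 0.33. Read numbers were recovered from the deposited mean log2 CPM of genes with a value in 1 library. Of such genes within the range of the fitted steps, between 70.5% and 75.7% fell within 0.05 of a whole read. The steps were set from the most common values of the same genes. Coordinates, types, lengths and sequences are from GENCODE M21 on GRCm38 (mm10), which matched 46005 of 46517 identifiers and all 255 segments. One of the 255 has another name there.

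Members and lists were chosen with earlier results of these data known. The rule for names took the 4 constant segments, the 20 variable or joining segments with the highest mean TPM, the 5 smallest p-values and, of each list, set genes and the 4 others with the smallest p. Further segments, the genes named Tcrg, B230359F08Rik, Gm16602, Lef1, Tox, Zap70, Vav1, the haemoglobin genes, the sums without Lat or Tcrg genes and the single markers were chosen after their values were seen. Alternatives tried were 0.1 and 0.5 as the pseudocount, the filter dropped or set at TPM 5, median-of-ratios or quantile scaling, no variance trend, a replicate block, each library left out, segments under 100 nt left out and a detection level of TPM 1.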

Additional observations from a re-analysis of the deposited data

How the results depend on the processing

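Of the T cell receptor segments and of each gene list, 0 passed limma's adjusted p of 0.05 under each of the 12 alternative fits. Over all genes the count was 10, and it was 3 with a pseudocount of 0.1, 0 with no filter, 19 with no variance trend and between 0 and 75 with 1 library left out, the last without Setd2D/D replicate 2. The alpha difference of 2.26 TPM was between -7.93 TPM (without Setd2D/D replicate 2) and 12.4 TPM (without Setd2D/D replicate 1) with 1 library left out. In settings chosen after seeing the data, the beta difference was -3.17 TPM without Trbv13-2, and the gamma difference, 0 by the matched names, was 26.8 TPM with the genes named Tcrg. Segments detected in Setd2f/f replicate 2 numbered 12 at TPM 1 and 27 above 0. Of the named segments, 6 changed sign. With 1 library left out, the log2 difference ranged from -0.79 to 0.51 for Trbc1 (positive without Setd2D/D replicate 2), from -1.80 to 0.34 for Trbc2 (positive without Setd2D/D replicate 1), from -0.85 to 2.23 for Trav15-3 and from -0.56 to 0.83 for Trav14n-3 (both negative without Setd2f/f replicate 1). For Trav13d-2 and Trav13n-2 it ranged from -0.68 (without Setd2f/f replicate 2) to 0.87, and it was -0.38 and -0.028 with pseudocounts of 0.1 and 0.5. The other 7 tested segments and Tcrg-C1 kept their direction in each setting that tested them. Left-out fits leave 1 library in a genotype, which is assumed to vary like the others.

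With the replicate block, 0 genes passed limma over all genes, and Trbv13-2 had an adjusted p of 0.225. Same-numbered libraries deviated from their group means with a correlation of 0.0414, so that the numbers were not taken to pair them. Depth limits values near 1 TPM, which rest on few reads, and read numbers were not recovered for segments in Setd2D/D replicate 1.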
